A study of Homo sapiens with 8 samples.

Results

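The regions described here are stretches of the genome enriched in DNA double-strand breaks (BLISS+ regions) that were listed in both groups of U2OS-MycER cells with activated MycER, those carrying a non-targeting shRNA and those silenced for CDK12. To find them, the lists of 4 libraries were merged, with touching regions joined, and a merged region was retained when at least 1 bp of it was listed by at least 1 library of each group. The comparison was made on chromosomes 1, 2, 4, 6, 7, 8, 10 and 14, which every list covers. Of 3868 merged regions on these 8 chromosomes, 551 (14.2%, 95% Wilson interval 13.2 to 15.4) met the rule and are called shared regions below, while 800 were listed in shNT+OHT only and 2517 in shCDK12+OHT only. Wilson intervals here cover counting error alone, since neighboring regions are not independent. The count of shared regions itself follows from the rule, so it is given as a description. All positions are on hg19, counted from 1.

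Breaks were mapped by in-suspension BLISS, in which break ends are blunted and tagged with an adapter inside fixed cells. U2OS is a human osteosarcoma line, and MycER is a Myc protein fused to the estrogen receptor that moves into the nucleus when 4-hydroxytamoxifen (OHT) is added. Both groups received 300 nM OHT for 40 h and 1 µg/mL doxycycline to induce the shRNA, and differed in that shRNA (shNT or shCDK12). Both were blocked in mitosis by nocodazole (100 ng/mL, 8 h), shaken off, released for 18 h and fixed in 2% paraformaldehyde, with 2 libraries per group (n = 2 throughout). Whether the replicates came from separate cultures is not stated. The series also holds libraries without OHT, which were not analysed here. Whether any shared region was also listed without MycER activation was therefore not examined. The shNT+OHT and shCDK12+OHT cells were sampled side by side, so "shared" does not mean that a break lasted over time.

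CDK12 is a kinase that phosphorylates RNA polymerase II during elongation and supports the full-length transcription of long genes, many of them involved in DNA repair. Oncogenic Myc raises transcription and brings forward DNA synthesis, and a replication fork that meets a transcribing polymerase can stall and break. A BLISS+ region is a stretch called as enriched in mapped break ends over the many cells of a culture. In such bulk lists, more broken cells and more breaks per cell cannot be told apart. Copy number and repeated sequence were not examined here, and their part in the lists was not tested.

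Shared regions made up a larger part of the shNT+OHT lists than of the shCDK12+OHT lists. On the 8 chromosomes, shNT+OHT replicates 1 and 2 listed 2.78 and 1.61 Mb, of which 1.57 and 0.982 Mb (56.6 and 61.1%) lay in shared regions. shCDK12+OHT replicates 1 and 2 listed 8.49 and 6.27 Mb, of which 2.21 and 1.78 Mb (26.04 and 28.44%) lay there. A long list touches more of a short one than the reverse, and the part of list length in these shares was not tested. In shared regions the mean covered length was 1.28 Mb ± 0.419 (SD, n = 2) in shNT+OHT against 2.00 Mb ± 0.301 (SD, n = 2) in shCDK12+OHT (log2 ratio 0.64). Over all listed regions of the same chromosomes the log2 ratio was 1.75. The fall from 1.75 to 0.64 was fixed by the rule, which removes the regions of 1 group, most of them listed in shCDK12+OHT only. Within shared regions the 2 groups did not overlap in length. Without shNT+OHT replicate 2 the log2 ratio in shared regions was 0.14, and without replicate 1 it was 0.35. Depth per library is unknown, as the lists carry coordinates only, and its part in these lengths was not tested.

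**Figure D1:**
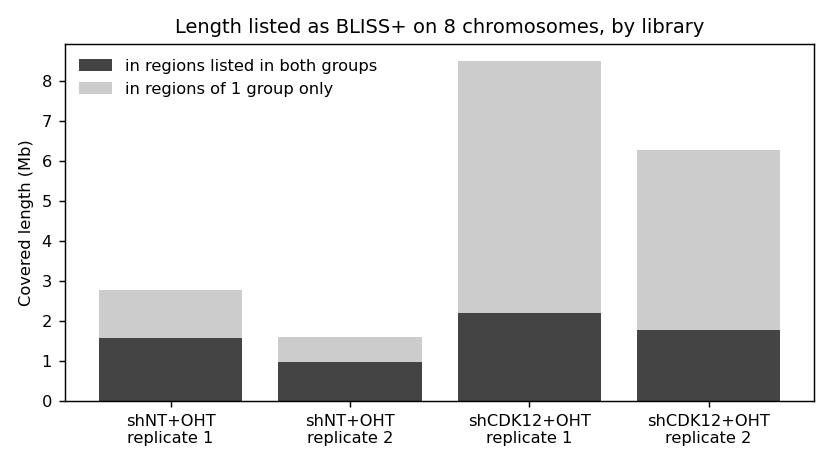
Length listed as BLISS+ on the 8 chromosomes (Mb, y axis) in each of the 4 libraries (bars), split into shared regions (dark) and regions of 1 group only (light). The dark part reaches 1.57 and 0.982 Mb in shNT+OHT against 2.21 and 1.78 Mb in shCDK12+OHT, while the light part is much the larger in shCDK12+OHT.

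Shared regions were wider than regions of 1 group. Their mean merged width was 5.26 kb (median 4 kb, range 2 to 52 kb), against 2.16 kb for regions of shNT+OHT only (longest 8 kb) and 3.01 kb for regions of shCDK12+OHT only (longest 16 kb). Of the shared regions 38.3% were a single 2 kb bin, the unit in which breaks were counted, against 94.1 and 72.5% of the regions of 1 group. Merging and touching both favor wide regions, so the merged width is tied to the rule. The widths of the single listed regions, before merging, ran the same way in each library. A wide listed region is also more easily touched by the other group, so these widths are tied to the rule too. In shNT+OHT replicates 1 and 2, listed regions averaged 3.43 and 2.98 kb inside shared regions and 2.14 and 2.09 kb elsewhere. In shCDK12+OHT replicates 1 and 2, they averaged 4.79 and 3.96 kb inside and 3.02 and 2.81 kb elsewhere.

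Replicate support differed between shared regions and the others. Both shNT+OHT libraries listed 203 of 551 shared regions (36.8%), against 64 of the 800 regions of shNT+OHT only (8%). Both shCDK12+OHT libraries listed 333 shared regions (60.4%), against 1151 of the 2517 regions of shCDK12+OHT only (45.7%). A region listed more often has more chances to be touched, and the rule uses those listings. The 4 single libraries listed between 310 (shNT+OHT replicate 2) and 452 (shCDK12+OHT replicate 1) of the shared regions. The most frequent combinations were all 4 libraries (145 regions) and shNT+OHT replicate 1 with both shCDK12+OHT replicates (145 regions), and 160 regions rested on 1 library of each group.

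The groups had bins in common in 512 of the 551 regions. With replicates of a group joined, shNT+OHT and shCDK12+OHT listed exactly the same bins in 245 shared regions (44.5%), 211 of them a single bin. The shNT+OHT bins lay wholly inside a larger set of shCDK12+OHT bins in 194 regions (35.2%), and the reverse held in 60 (10.9%). Another 13 regions overlapped in part. Where shCDK12+OHT was the larger set, the added bins lay on both sides in 44 regions, at lower coordinates in 79, at higher coordinates in 64 and within a gap in 7. In all, 1449 bins of shared regions were listed by at least 1 library: 790 (54.5%) in both groups, 497 (34.3%) in shCDK12+OHT only and 162 (11.2%) in shNT+OHT only. Only 222 bins (15.3%) were listed by all 4 libraries.

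At the edge of the rule, 39 shared regions (7.08%) had no bin listed in both groups and were joined only because listed bins touched. Their median merged width was 4 kb, and none belonged to the regions of all 4 libraries. The 3 widest were chr14:56044001-56056000, chr4:125628001-125638000 and chr14:56580001-56590000. In the first, shNT+OHT replicate 1 listed 2 kb and replicate 2 none, while the shCDK12+OHT replicates listed 10 and 2 kb. In each of the other 2, shNT+OHT replicate 1 listed 2 kb and replicate 2 none, and both shCDK12+OHT replicates listed 8 kb. A further 418 shared regions had exactly 1 bin in common. Just outside the rule, 53 of 800 regions of shNT+OHT only and 53 of 2517 regions of shCDK12+OHT only lay within 4 kb of a region of the other group.

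The covered length of each shared region was then compared between groups, taking the mean of the 2 libraries of a group and a library that lists nothing as 0. It was wider in shCDK12+OHT in 269 regions (48.8%), equal in 190 (34.5%) and narrower in 92 (16.7%). Over all 3868 merged regions the corresponding shares were 72, 4.91 and 23.1%. These background shares hold the regions of 1 group, which are wider or narrower by definition, and the rule used the same lists, so nothing is read from the contrast. The median difference was 0 kb, with quartiles of 0 and 3 kb and a range of -8 to 13 kb. A difference of 4 kb or more was reached in 108 of the wider and 8 of the narrower regions.

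For regions missing from 1 library or more, the direction mostly followed how many libraries of each group listed the region. Of the 145 regions of shNT+OHT replicate 1 and both shCDK12+OHT replicates, 140 were wider in shCDK12+OHT. Of the 58 regions listed by both shNT+OHT replicates and 1 shCDK12+OHT replicate, 54 were narrower, and of the 160 regions with 1 library of each group, 139 were equal. Without shNT+OHT replicate 2, the shortest list, the counts turned to 159 wider and 183 narrower among 443 regions. Without shNT+OHT replicate 1 there were 112 wider and 125 narrower regions of 310. These turns are set in part by the rule, since a single shNT+OHT library must list every region that is left while a shCDK12+OHT library may list none. The regions of all 4 libraries, given next, do not have this limit, but there no library can cover less than 1 bin.

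The 145 regions listed in all 4 libraries are free of missing values. In them the 4 lists covered 844 and 610 kb in shNT+OHT against 1040 and 794 kb in shCDK12+OHT (log2 ratio of the means 0.33). The ranges of the groups overlapped, since shCDK12+OHT replicate 2 covered less than shNT+OHT replicate 1. By group means, 72 of these regions (49.7%, 95% Wilson interval 41.6 to 57.7) were wider in shCDK12+OHT, 46 (31.7%) were equal and 27 (18.6%, 13.1 to 25.7) were narrower. A region of 1 bin in both shNT+OHT libraries cannot be narrower in shCDK12+OHT. There were 62 such regions, 31 of them wider in shCDK12+OHT and 31 equal. In the other direction, 16 regions had 1 bin in both shCDK12+OHT libraries and were wider in shNT+OHT. Over all 145 regions the mean difference was 1.31 kb and the median 0 kb. Within a group, the replicates differed by 2.11 kb on average in shNT+OHT and by 2.17 kb in shCDK12+OHT (mean absolute difference of single regions, which is not the error of the mean above).

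Single pairs of libraries gave different pictures. Setting shNT+OHT replicate 2 against shCDK12+OHT replicate 1 gave 84 wider, 52 equal and 9 narrower regions (mean difference 2.97 kb). Both pairs of libraries with the same number leaned the same way, with 64 wider and 25 narrower for the replicates numbered 1 and 51 wider and 18 narrower for those numbered 2. shNT+OHT replicate 1 against shCDK12+OHT replicate 2 gave 41 wider, 62 equal and 42 narrower regions (mean difference -0.345 kb). The lean toward wider regions was thus seen in 3 of the 4 pairs, and with 2 libraries per group its size depended on the libraries paired.

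At single regions, the groups were compared library by library. Each shCDK12+OHT library covered more than each shNT+OHT library in 115 shared regions (20.9%; 32.7% over all merged regions), and less in 8 (1.45%; 1.86% over all merged regions). Of the 115, 83 were regions that 1 shNT+OHT library did not list. Without shNT+OHT replicate 2 the counts were 102 and 49, without shNT+OHT replicate 1 they were 66 and 17, and without shCDK12+OHT replicate 2 they were 181 and 7. The number of narrower regions was 14 without shCDK12+OHT replicate 1. Among the regions of all 4 libraries, the groups did not overlap in 38, with 32 (22.1%) wider and 6 (4.14%) narrower in shCDK12+OHT. The 32 lay on all 8 chromosomes. With 2 libraries against 2 these counts describe the lists, and no test was applied to a measure that the rule had used.

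The 6 most widened regions of all 4 libraries all had groups that did not overlap. On chromosome 1, chr1:145054001-145090000 was covered over 22 kb in both shNT+OHT replicates and over 36 and 34 kb in shCDK12+OHT, the largest gain (13 kb). Its neighbor chr1:145096001-145118000 was covered over 14 and 8 kb in shNT+OHT and over 22 and 16 kb in shCDK12+OHT. On chromosome 10, chr10:22602001-22618000 was covered over 4 kb in both shNT+OHT replicates and over 16 kb in both shCDK12+OHT replicates, with bins added on both sides. The replicates of this region matched exactly within each group. On chromosome 8, chr8:28728001-28744000 was covered over 2 and 4 kb in shNT+OHT and over 16 and 10 kb in shCDK12+OHT. On chromosome 14, chr14:54900001-54910000 went from 1 bin (2 kb) in both shNT+OHT replicates to 10 kb in both shCDK12+OHT replicates. Also on chromosome 14, chr14:62154001-62168000 was covered over 2 and 4 kb in shNT+OHT and over 12 and 10 kb in shCDK12+OHT. A single bin in both shNT+OHT replicates beside at least 8 kb in both shCDK12+OHT replicates was seen in 6 of the 145 regions.

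The 6 most narrowed regions of all 4 libraries were taken with ties going to the lower chromosome number and start, and 7 regions tied at the sixth place (-3 kb), 3 of them with groups that did not overlap. The largest loss was at chr4:30374001-30388000, covered over 12 and 14 kb in shNT+OHT and over 4 and 6 kb in shCDK12+OHT (-8 kb). At chr6:57430001-57440000 the lengths were 10 and 6 kb in shNT+OHT against 2 and 4 kb in shCDK12+OHT. At chr8:26786001-26792000 both shNT+OHT replicates covered the full 6 kb and both shCDK12+OHT replicates 2 kb. These 3 regions and chr4:30320001-30328000 (6 and 4 kb against 2 kb in both shCDK12+OHT replicates) were narrower in every library of shCDK12+OHT. The other 2 were decided by single libraries. At chr8:29408001-29418000 only shNT+OHT replicate 1 exceeded 2 kb, with 10 kb. At chr10:39104001-39156000 the lengths were 50 and 18 kb in shNT+OHT against 52 and 8 kb in shCDK12+OHT, so replicates of a group differed far more than the groups.

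Other regions had the same covered length throughout. In 36 of the 145 regions every library covered the same length, in 31 of them 1 bin (for example chr1:61550001-61552000). The longest was chr2:89832001-89880000, covered over 48 kb in each of the 4 libraries. Next came chr1:564001-572000, with 8 kb in each library, which in hg19 is known to hold a nuclear copy of mitochondrial DNA. Regions of 4 kb in each library were chr4:68264001-68268000, chr6:58776001-58780000 and chr8:43092001-43096000. Repeated sequence in the other regions named here was not examined, since no hg19 genome was used, and its part in their constant length was not tested. In 7 regions every library covered at least 10 kb, among them chr10:42790001-42818000, with 28 and 26 kb in shNT+OHT and again 28 and 26 kb in shCDK12+OHT.

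**Figure D2:**
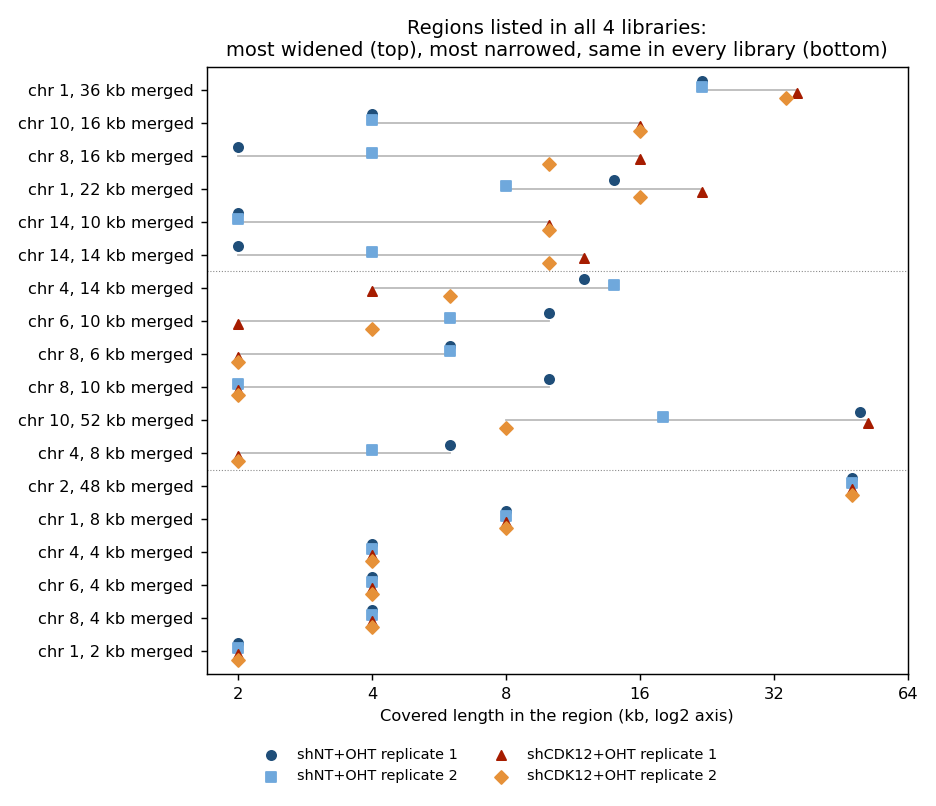
Covered length (kb, x axis, log2 scale) of single regions listed in all 4 libraries, with 1 symbol per library and a grey line over their range. In the upper 6 rows both shCDK12+OHT symbols lie to the right of both shNT+OHT symbols, in the middle 6 rows they lie to the left in 4, and in the lower 6 rows the 4 symbols fall on 1 length, from 48 kb on chromosome 2 to 2 kb on chromosome 1.

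On the remaining chromosomes, the region with the largest minimum over the 4 libraries was chosen as the one best supported. It was chr4:34404001-34418000 on chromosome 4 (6 and 8 kb in shNT+OHT, 10 and 8 kb in shCDK12+OHT). On chromosome 6, it was chr6:57370001-57382000 (12 and 8 kb against 8 kb in both shCDK12+OHT replicates). On chromosome 7, chr7:61744001-61758000 was covered over 10 and 6 kb in both groups alike. On chromosome 8, chr8:29928001-29946000 was covered over 14 and 12 kb in shNT+OHT and over 18 kb in both shCDK12+OHT replicates. On chromosome 14 all 12 regions of all 4 libraries tied at a minimum of 2 kb, and 4 of them had groups that did not overlap. Of the regions named for chromosomes 4, 6, 7 and 8, the one of chromosome 8 alone had groups that did not overlap.

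Shared regions were unevenly spread over chromosomes. Chromosome 8 held 199 of the 551 (36.1%) and 58 of the 145 regions of all 4 libraries (40%), while it held 19.1% of all merged regions. On chromosome 8, 26.9% of merged regions were shared (95% Wilson interval 23.8 to 30.2), against 8.31% (6.39 to 10.7) on chromosome 2, 8.93% on chromosome 6, 10.2% on chromosome 1, 11.1% on chromosome 7, 13.8% on both chromosomes 4 and 10, and 14.4% on chromosome 14. Seen from the shNT+OHT lists the order was different. Of the merged regions with a shNT+OHT listing, 65.9% were shared on chromosome 1 and 22.1% on chromosome 7, with 47.4% on chromosome 8. Chromosome 7 thus held many shNT+OHT regions (183) with no shCDK12+OHT counterpart, and chromosome 1 few (28). Neighboring regions on a chromosome are not replicates, so these shares carry no test.

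**Figure D3:**
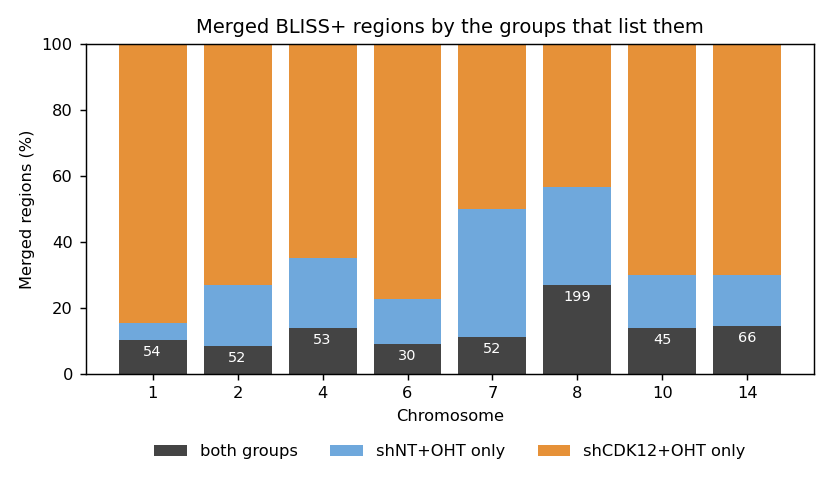
Share of the merged regions of each chromosome (%, y axis) that were listed in both groups (dark, with their number), in shNT+OHT only (blue) or in shCDK12+OHT only (orange). The dark part is largest on chromosome 8 (199 regions, 26.9%) and smallest on chromosome 2 (52 regions, 8.31%).

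The direction of the width difference also varied between chromosomes. Narrower regions were 52 of 199 (26.1%) on chromosome 8, 13 of 53 (24.5%) on chromosome 4 and 9 of 30 (30%) on chromosome 6. On chromosomes 1 and 2 only 1 region each was narrower in shCDK12+OHT, and 36 of 54 (66.7%) and 36 of 52 (69.2%) were wider. In covered length, shared regions of chromosome 1 spanned 172 and 102 kb in shNT+OHT against 298 and 246 kb in shCDK12+OHT, without overlap of the groups. Those of chromosome 8 spanned 528 and 340 kb in shNT+OHT against 598 and 460 kb in shCDK12+OHT, with overlap. Without chromosome 8, 200 of 352 shared regions (56.8%) were wider and 40 (11.4%) narrower.

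Along chromosomes, some shared regions lay close together, and so did regions of 1 group. Within 100 kb of another shared region lay 250 of them (45.4%), and within 100 kb of any merged region 78.4%. For regions of shNT+OHT only and shCDK12+OHT only, the shares were 50.25 and 47.0% (own class) and 70.4 and 54.5% (any). Own-class shares of shared, shNT+OHT only and shCDK12+OHT only regions were 38.1, 35.75 and 29.5% within 50 kb. Within 500 kb they were 68.6, 80.75 and 88.0%, so the order changed with distance. The classes differ in number, and the part of this was not tested. Of 270 windows of 1 Mb that held a shared region, 22 held 5 or more, 14 of these on chromosome 8. These 22 windows held 207 shared regions (37.6%). Of their merged regions 47.2% were shared, against 10.03% in the other windows. Of the listed length, 36.0 and 34.2% of the shNT+OHT lists but 12.1 and 10.8% of the shCDK12+OHT lists fell in them. Since the windows were picked by their number of shared regions, this too is a description.

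The window with most shared regions was 30 to 31 Mb of chromosome 4, with 30 shared regions, 11 of shNT+OHT only and 8 of shCDK12+OHT only. Then came 29 to 30 Mb and 28 to 29 Mb of chromosome 8, with 24 and 21 shared regions, 57 to 58 Mb of chromosome 6, with 13, and 67 to 68 Mb of chromosome 14, with 11. Summed over the shared regions of a window, shNT+OHT covered 98 and 56 kb and shCDK12+OHT 76 and 58 kb in the chromosome 4 window. In the chromosome 6 window the lengths were 88 and 32 kb against 52 and 32 kb, and 8 of 13 regions were narrower in shCDK12+OHT while 1 was wider. In the chromosome 14 window they were 18 and 14 kb against 36 and 12 kb, and none of its 11 regions was listed in all 4 libraries. The groups overlapped in each of these windows, also in the 2 of chromosome 8 (126 and 58 kb against 122 and 74 kb, and 80 and 48 kb against 86 and 58 kb).

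Chaining shared regions across gaps of up to 100 kb gave 362 runs, 301 of them a single region, while 11 runs held at least 5 regions and 126 regions in all. The longest run by number held 30 regions over 626 kb (chr4:30270001-30896000). The next held 29 regions over 810 kb (chr8:29532001-30342000), 12 of them listed in all 4 libraries. Within the chromosome 4 run, the libraries listed 19.5 and 10.2% of the sequence in shNT+OHT against 14.1 and 12.5% in shCDK12+OHT. In the chromosome 8 run they listed 17.5 and 7.65% in shNT+OHT against 20.2 and 11.4% in shCDK12+OHT. Over the 8 chromosomes, up to their last listed region, the same libraries listed 0.199 and 0.115% and 0.608 and 0.449%. Where listed regions lie this densely, regions of different libraries meet more often by position alone, and how many shared regions this accounts for was not tested. Another run, of 12 regions on chromosome 6 (chr6:57242001-57564000), held no region that was wider in shCDK12+OHT and 8 that were narrower, at 86 and 30 kb in shNT+OHT against 44 and 24 kb in shCDK12+OHT. The run of 9 regions at chr1:144924001-145118000 held 6 wider and no narrower regions, at 92 and 52 kb against 112 and 86 kb. In both of these runs the covered lengths of the groups overlapped.

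**Figure D4:**
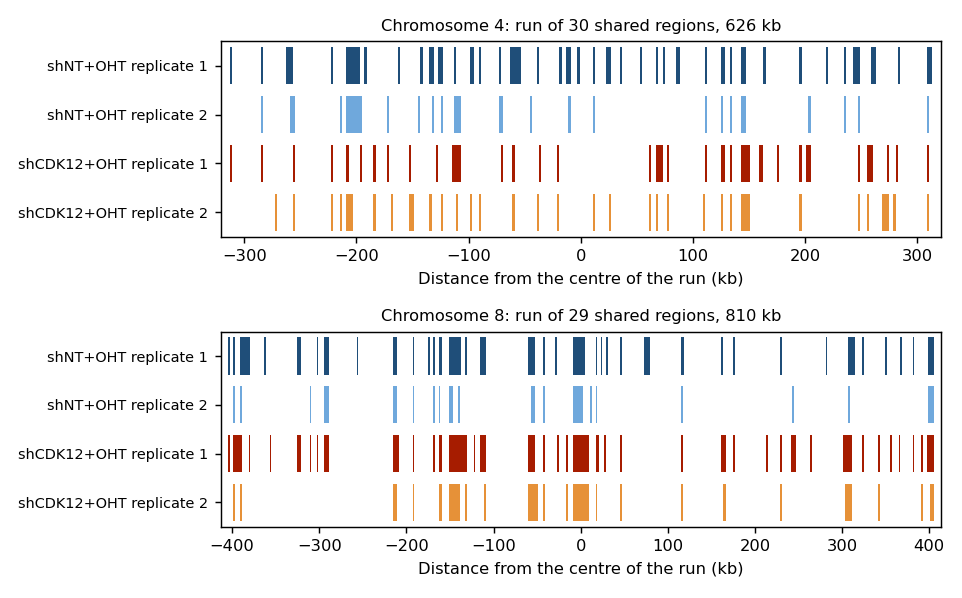
Listed regions (bars) of the 4 libraries in the 2 runs with most shared regions, by distance from the centre of the run (kb, x axis). Listed bars are scattered through both runs in every library, and several positions carry a bar in all 4: 10 shared regions of the chromosome 4 run and 12 of the chromosome 8 run were listed in all 4 libraries.

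The width difference moved with crowding, measured as the number of other shared regions within 1 Mb. This grouping was chosen after the values had been seen. Among the 114 isolated regions, with none within 1 Mb, 74 (64.9%) were wider in shCDK12+OHT and 7 (6.14%) narrower. Among the 153 regions with 10 or more, 47 (30.7%) were wider and 52 (34.0%) narrower. In isolated regions the libraries covered 220 and 120 kb in shNT+OHT against 428 and 414 kb in shCDK12+OHT, so the groups lay far apart (log2 ratio 1.31). With 1 to 2 others within 1 Mb, the lengths were 274 and 232 kb against 592 and 530 kb (log2 ratio 1.15). With 3 to 9 others they were 542 and 346 kb against 674 and 492 kb (0.39), and the groups overlapped. With 10 or more they were 538 and 284 kb against 516 and 348 kb (0.07).

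The same order was seen within each of the 4 pairs of a shNT+OHT and a shCDK12+OHT library: the log2 ratio of isolated regions exceeded that of the most crowded ones by 0.97 to 1.54. Among the regions of all 4 libraries it exceeded it by 0.18 to 0.96, with no narrower region among 20 isolated ones and 17 among 48 crowded ones. A region of 1 bin in both shNT+OHT libraries cannot be narrower, and many of the isolated ones are such regions. The absence of narrower isolated regions is thus set in part by this limit, and nothing is read from these counts. Crowded regions lay mostly on chromosome 8 (99 of 153). Without that chromosome the log2 ratio was 1.37 in isolated regions and -0.20 in the 54 most crowded ones, but these 54 come from only 3 places. The log2 ratio was -0.20 in the 30 regions of chromosome 4, -0.51 in the 13 of chromosome 6 and 0.58 in the 11 of chromosome 14, so the places did not go the same way. All 4 pairs share libraries, and crowding was counted from the same lists, so these values are a description.

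**Figure D5:**
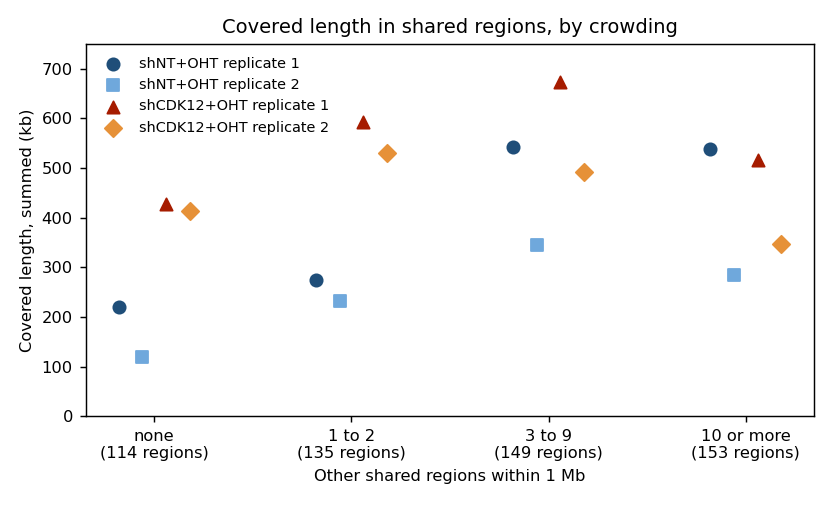
Covered length summed over shared regions (kb, y axis, from 0), by the number of other shared regions within 1 Mb (x axis, with the number of regions), 1 symbol per library. In isolated regions both shCDK12+OHT symbols (428 and 414 kb) stand above both shNT+OHT symbols (220 and 120 kb), whereas with 10 or more neighbors the groups overlap.

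The longest stretch of each chromosome that no list touched gave a last landmark. It measured 21.0 Mb on chromosome 1, 20.3 Mb at the start of chromosome 14 and between 4.55 and 11.8 Mb on the others. On some chromosomes it barely exceeded the second longest stretch (5.46 against 5.45 Mb on chromosome 10), so it is a weak landmark there. Within 5 Mb of it lay 27 shared regions (4.90%), 14 of them listed in all 4 libraries (9.66% of 145). The shares were 2.13% for regions of shNT+OHT only and 3.73% for those of shCDK12+OHT only. Within 2 Mb, the shares of shared, shNT+OHT only and shCDK12+OHT only regions were 2.00, 0.25 and 1.87%. Within 10 Mb they were 6.35, 4.63 and 7.39%, so the order of shared and shCDK12+OHT only regions turned. Regions of all 4 libraries had 3.45% within 2 Mb and 11.0% within 10 Mb. Most of the 27 were on chromosomes 1 (14) and 2 (7), and they included the 48 kb region of chromosome 2 and the run at chr1:144924001-145118000. Of the 27, 13 were wider, 13 equal and 1 narrower in shCDK12+OHT.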

How the data were processed

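The deposited files are lists of BLISS+ regions, 1 per library, in which the authors give a chromosome, a start and an end (other values such as a count, signal or score are not part of them). The publication read here, which used the shNT+OHT lists again, describes for its own libraries the removal of PCR duplicates by unique molecular identifier, counting in 2 kb bins, a fixed threshold on coverage, and joining of bins above it when 2 kb or less apart, after libraries had been thinned to the number of break positions of the smallest. That publication says that its script for calling regions was designed in an earlier study, from which it also took the shNT+OHT data. It does not state whether the same threshold and thinning also apply to the 4 deposited lists. In every list all starts and ends fell on multiples of 2000 bp and neighboring regions lay at least 4 kb apart. A fixed threshold without thinning would make the listed length depend on library yield, which is unknown.

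The labels name hg19, and 1, 3, 32 and 25 regions of shNT+OHT replicates 1 and 2 and shCDK12+OHT replicates 1 and 2 end beyond the hg38 chromosome ends. A genome or annotation of hg19 was not used here, so no gene or sequence is given and the planned gene and base composition context was left out.

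Groups came from sample titles. Lists were merged and covered lengths computed in Python 3.11.15 with NumPy 2.4.6, SciPy 1.17.1 and Matplotlib 3.10.9, and the code was tested on simulated data with known classes. A region counted as touched from 1 bp. Regions were named by rule: among those of all 4 libraries, the 6 most widened, the 6 most narrowed and the 6 longest of constant length; per chromosome, the region with the largest minimum over libraries; the 5 windows of 1 Mb with most shared regions; and the 3 widest without a common bin. Ties went to the lower chromosome number and start, and no region is named for chromosome 14 by the minimum, where all tied. Runs, crowding, and the regions of chromosomes 1 and 6 given with them were added after values were seen. The rule, lists and measures were chosen with earlier results of these data known. No test was run, because every width comes from the lists that chose the regions. Alternatives covered merging, chromosomes, region size, overlap, replicate agreement, group value, tolerance, left-out libraries and pairing by replicate number.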

Additional observations from a re-analysis of the deposited data

How the results depend on the processing

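Over 17 results and 158 alternatives, 81 values stayed within the limit set for each result, 77 moved and 0 reversed. The limit was 1.5 times the main count for counts and the binomial interval for shares of regions. For shares of length it was the spread between replicates. For the median difference and the log2 ratio it was the spread over pairs of libraries of the 2 groups. Only the log2 ratio could be called reversed, so the 0 says nothing about the other results. Wider and narrower regions were counted as separate results here, and their balance did turn, from 269 against 92 to 159 against 183 without shNT+OHT replicate 2 and to 112 against 125 without shNT+OHT replicate 1. Leaving out chromosome 8 was chosen after the data had been seen. Many moves follow from having fewer regions or libraries to count, and beyond that the cause was not tested. Unknown depth limits every width.

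With only listed regions of at least 4 kb, 82 shared regions (8.15% of merged regions) were left, of which 50 were wider, 17 equal and 15 narrower in shCDK12+OHT and 31 were in all 4 libraries. Their groups did not overlap in 15 (wider) and 2 (narrower), the median difference was 1.5 kb, and they held 65.1 and 77.6% of the shNT+OHT and 16.5 and 16.2% of the shCDK12+OHT length. With both replicates of both groups required, 145 regions (3.75%) were left, with 72 wider, 46 equal and 27 narrower, and 32 wider without overlap. These held 30.3 and 37.9% of the shNT+OHT length and 12.3 and 12.7% of the shCDK12+OHT length, and 36.6% lay within 100 kb of another. Without chromosome 8, there were 352 regions (11.3%), of which 112 were equal and 40 narrower. Over all chromosomes the share was 10.7%, and 19.3 and 21.0% of the shCDK12+OHT length was shared. The shNT+OHT lists hold regions on only 13 chromosomes each, against 22 and 23 in the shCDK12+OHT lists. Outside the 8 chromosomes at least 1 list is thus empty, and the regions of all 4 libraries stayed at 145. The lower shares over all chromosomes come in part from chromosomes that a list does not hold. With lists joined across gaps of up to 10 kb, 63.1 and 65.5% of the shNT+OHT and 29.6 and 31.4% of the shCDK12+OHT length was shared, and 38.4% of regions lay within 100 kb of another.

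With the longest library as group value, 288 regions were equal and 58 narrower. With differences of less than 1 bin counted as equal, 327 were equal and 38 narrower. Neighbors lay within 50 kb of 38.1% and within 500 kb of 68.6% of regions, and 2.00% lay within 2 Mb of the longest unlisted stretch. With the replicate number as a replicate block (both same-numbered pairs going the same way), 143 regions were wider, 114 equal and 16 narrower. Under this setting overlap of the groups was not checked, and the counts for groups without overlap repeat those of wider and narrower regions. The labels give no shared origin for same-numbered libraries, so the numbers are not taken to pair them.

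Leaving out 1 library at a time gave 310 to 451 shared regions (9.18 to 14.6%), with 112 to 353 wider, 60 to 101 equal and 38 to 183 narrower, and 173 to 290 in all remaining libraries. Groups without overlap were 66 to 181 (wider) and 7 to 49 (narrower). The median difference was 0 to 1 kb, the log2 ratio of length 0.14 to 0.96, and 38.0 to 44.0% of regions had a neighbor within 100 kb. The shared part was 48.1 to 56.5% and 51.2 to 60.8% of shNT+OHT replicates 1 and 2, and 16.5 to 25.97% and 17.4 to 28.2% of shCDK12+OHT replicates 1 and 2.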
